A study of Homo sapiens with 6 samples.

Results

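The genes of the unfolded protein response and the integrated stress response were followed in HuCCT1, a human cholangiocarcinoma (bile duct cancer) cell line, on arrays of cells labelled as overexpressing WTAP and of mock cells. The set was a list of 40 genes, chosen with earlier results of these data known. Its members were all probes annotated to these genes, 53 of the 29285 probes that could be used. A probe counted as detected where its detection p, the chance of such a signal from negative control beads, was under 0.05 on at least 3 of the 6 arrays. This held for 44 probes of 36 genes, while 15830 probes in all were detected, standing for 11586 named genes and including 679 probes with no gene symbol. The list held 13 chaperones and folding enzymes of the endoplasmic reticulum (ER), 4 genes of ER-associated degradation, 5 stress sensors and transcription factors, ATF4 with 2 subunits of the eIF2alpha phosphatase, 9 stress genes driven by ATF4, and 6 tRNA synthetases.

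Unfolded protein in the ER is sensed by 3 membrane proteins. IRE1 (gene ERN1) splices the mRNA of the transcription factor XBP1, and ATF6 is cut in the Golgi to release a transcription factor. Both factors raise chaperones and the degradation machinery. PERK (gene EIF2AK3) phosphorylates eIF2alpha, which slows translation in general while it favours that of ATF4. ATF4 then drives genes of amino acid supply, tRNA charging and stress-induced death. Other kinases reach eIF2alpha without ER stress, as in amino acid shortage, and the common output is called the integrated stress response. In the liver and bile duct, ER stress is known from the response to toxic bile acids.

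Total RNA was measured on single-colour Illumina bead arrays, 3 from mock HuCCT1 cells carrying an empty vector and 3 from stable HuCCT1 cells labelled as overexpressing WTAP, a subunit of the complex that writes N6-methyladenosine on mRNA. The labels give all cells the same growth medium, RPMI1640 with serum. The titles end in p4, p5 and p6 in each group and do not say what the p stands for. The numbers 4, 5 and 6 are used here as array numbers. The labels name no treatment or stressor and do not say whether the stable cells were 1 clone or several, or whether the arrays came from separate cultures, so p-values measure only the spread between these samples. The WTAP probe of highest mean read 9.84 ± 0.06 (SD, n = 3) on the mock arrays and 9.90 ± 0.06 (SD, n = 3) on the arrays labelled WTAP, a log2 difference of 0.06 with an adjusted p of 0.721 in limma, so every direction here rests on the labels. Of the bile duct and epithelial markers, KRT7, KRT19, KRT8, KRT18, EPCAM, CDH1 and SOX9 were detected on all 6 arrays. Of the leukocyte markers PTPRC and CD3E were detected on 0 arrays and CD14 on 6, and of the endothelial markers CDH5 and KDR on 0 and PECAM1 and VWF on 1. Of the liver cell markers APOB was detected on 0 arrays, TTR on 1, APOA1 on 2, and ALB and SERPINA1 on 6. Of the fibroblast markers DCN and COL3A1 were detected on 0 arrays, COL1A2 on 4 and COL1A1 on 6. These counts are for the brightest probe of a gene, and the second probes of ALB, CD14 and COL1A2 were each detected on 0 arrays. COL1A1 was higher on the WTAP arrays by 0.74 on the log2 scale (adjusted p 0.0112 in limma), and the part of these markers in the results was not tested. ALB, SERPINA1, CD14 and COL1A2 did not pass, at -0.39, -0.06, -0.22 and 0.12. Between 15071 and 16307 probes were detected per array, the median signal lay between 192 and 203, and Pearson correlations over probes were 0.988 to 0.993 within groups and 0.967 to 0.976 between them.

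The branches of the response act through short promoter motifs, which are shown because they differ between the branches. The members were listed as genes of these pathways, so a high share of promoters with such motifs is part of that choice. RefSeq promoters of GRCh38.p14, from 250 bases before to 50 bases after the start of the gene, were given for 38 of the 40 members, all but PDIA3 and NUPR1. Each motif was searched on both strands with no mismatch. The ER stress response element (ERSE), bound by ATF6 with NF-Y, was searched as CCAAT and CCACG with 9 bases of any kind between them, and occurred in 6 of the 38 member promoters (15.8%), against 0.0806% of 27305 promoters in all. ERSE-II, searched as ATTGG and CCACG with 1 free base between them, occurred in 3 (7.89%), against 0.0549%. These matches are given below 5′ to 3′ in the direction of the motif, with its fixed letters in capitals.
HSPA5, chr9:125241391-125241409, minus strand, ERSE: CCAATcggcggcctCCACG
HSP90B1, chr12:103930216-103930234, plus strand, ERSE: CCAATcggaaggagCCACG
HSP90B1, chr12:103930321-103930339, minus strand, ERSE: CCAATcgcgccgcaCCACG
CALR, chr19:12938384-12938402, minus strand, ERSE: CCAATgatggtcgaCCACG
CANX, chr5:179698778-179698796, plus strand, ERSE: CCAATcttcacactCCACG
CRELD2, chr22:49918554-49918572, minus strand, ERSE: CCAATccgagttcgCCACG
XBP1, chr22:28800603-28800621, minus strand, ERSE: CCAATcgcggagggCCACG
SDF2L1, chr22:21642114-21642124, minus strand, ERSE-II: ATTGGtCCACG
HYOU1, chr11:119057380-119057390, plus strand, ERSE-II: ATTGGaCCACG
HYOU1, chr11:119057274-119057284, plus strand, ERSE-II: ATTGGaCCACG
HERPUD1, chr16:56932025-56932035, plus strand, ERSE-II: ATTGGgCCACG

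All 9 genes with an exact ERSE or ERSE-II match encode chaperones, folding factors, HERPUD1 or XBP1, and none is an ATF4-driven stress gene or a synthetase. A near match in DDIT3 is described below. The amino acid response element (AARE), a motif of ATF4 with C/EBP partners, was searched as TGATGNAA and occurred in 6 member promoters (15.8%), against 3.67% of all. These were the promoters of AARS1, ATF3, CHAC1, HERPUD1, MARS1 and PPP1R15B. The cyclic AMP response element TGACGTCA occurred in those of CREB3L2 and PPP1R15A (5.26%, against 1.98%), and TGACGTGG, a site of XBP1 and ATF6, in that of HYOU1 alone (2.63%, against 0.795%), where it overlaps ERSE-II. A match is a description of the letters, and binding was not measured.

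The promoters of 3 genes on which the array results turn are given in full, in the direction of the gene, with the matches in capitals. HSPA5 holds ERSE, and HERPUD1 holds an AARE match (here as its reverse complement) followed by ERSE-II. DDIT3 holds no exact match to these 5 motifs in this window. It does hold CCAAT and CCACT with 9 bases between them, which differs from ERSE in the last base only. The search allowed no mismatch, so it did not count this stretch.
HSPA5, chr9:125241294-125241593, minus strand: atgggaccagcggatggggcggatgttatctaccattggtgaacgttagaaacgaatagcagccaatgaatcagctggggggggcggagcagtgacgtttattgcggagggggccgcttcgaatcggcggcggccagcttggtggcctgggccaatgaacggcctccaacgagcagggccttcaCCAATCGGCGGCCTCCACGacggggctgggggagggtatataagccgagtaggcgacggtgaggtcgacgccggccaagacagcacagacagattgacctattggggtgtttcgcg
HERPUD1, chr16:56931892-56932191, plus strand: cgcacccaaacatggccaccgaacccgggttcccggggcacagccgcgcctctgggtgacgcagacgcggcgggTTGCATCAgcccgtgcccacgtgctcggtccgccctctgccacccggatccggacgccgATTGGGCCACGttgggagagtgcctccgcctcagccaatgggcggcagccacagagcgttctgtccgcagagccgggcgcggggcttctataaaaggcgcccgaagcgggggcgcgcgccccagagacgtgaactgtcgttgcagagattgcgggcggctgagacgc
DDIT3, chr12:57520465-57520764, minus strand: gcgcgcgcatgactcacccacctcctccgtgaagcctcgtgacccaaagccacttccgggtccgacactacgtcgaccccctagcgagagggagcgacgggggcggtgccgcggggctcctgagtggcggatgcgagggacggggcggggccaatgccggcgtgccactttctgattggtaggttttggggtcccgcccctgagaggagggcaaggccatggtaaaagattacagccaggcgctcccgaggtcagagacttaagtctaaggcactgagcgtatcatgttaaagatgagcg

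Few of the stress-response genes passed the test, and they did so in both directions. The RNA was of bulk culture, so fewer cells expressing a gene and less RNA per cell cannot be told apart. Each gene was read by the probe with the highest mean over the 6 arrays, in a limma fit of the log2 intensities over all 15830 detected probes with Benjamini-Hochberg adjustment at 0.05. HSPA5 and ATF6 were higher on the WTAP arrays, and DDIT3 and CEBPB were lower. These are 4 of 36 genes (11.1%), while 19.3% of all genes tested passed, 9.81% higher and 9.50% lower. None of the 4 had a second usable probe to set beside the call. Another 6 members had an unadjusted p under 0.05 only, 10 in all. The groups did not overlap for 13 of the 36 genes (36.1%), 6 higher and 7 lower on the WTAP arrays, against 39.7% of all genes, 20.2% higher and 19.5% lower, so by either count the members did not exceed the background.

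The changes were small. The log2 fold change, WTAP minus mock, ran from -0.54 to 0.70 over the members, and 0 of the 36 changed by 2-fold or more, while 4.03% of all genes passed both the test and that size. The median size of change, without its sign, was 0.21 on the log2 scale, beside 0.22 over all genes. It was below 0 for 25 members and above 0 for 11, with a median of -0.08 beside 0.00 over all genes. For 22 of the 36 genes the 95% interval of the change lay within 1.5-fold in either direction, and for 34 within 2-fold.

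**Figure D1:**
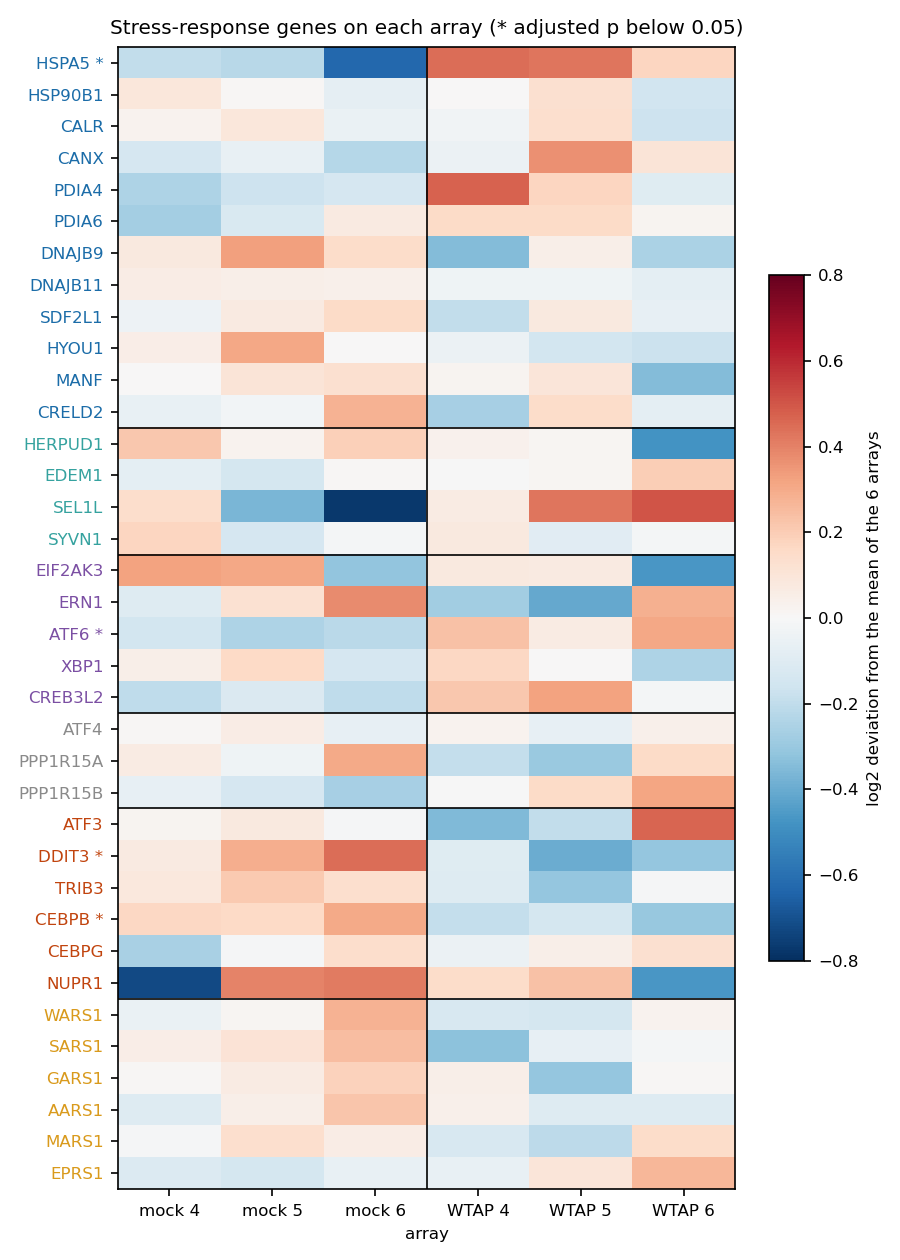
Log2 deviation of each of the 36 detected stress-response genes (rows, in role order, asterisk where the adjusted p was below 0.05) from its mean over the 6 arrays (columns, 3 mock then 3 WTAP), coloured from blue, lower, to red, higher. HSPA5 and ATF6 are higher on all 3 WTAP arrays and DDIT3 and CEBPB lower, while most other rows show no clean split between the groups.

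Among the 5 sensors and transcription factors, ATF6 alone passed (20%, beside 19.3% of all genes). ATF6 mRNA encodes the membrane-bound precursor of the transcription factor. It read 10.79, 10.69 and 10.72 on mock arrays 4, 5 and 6 and 11.17, 11.00 and 11.25 on WTAP arrays 4, 5 and 6, on the log2 scale. All WTAP arrays lay above all mock arrays, with means of 10.73 ± 0.05 and 11.14 ± 0.13 (SD, n = 3). The log2 fold change was 0.41 ± 0.11 (SE), or 1.33-fold, with an adjusted p of 0.0405 in limma. The call was kept in 8 of 16 alternatives, with adjusted p from 0.00994 to 0.533. It was lost without any 1 of mock arrays 4, 5 and 6 (0.0779, 0.123 and 0.0969) or WTAP arrays 4 and 6 (0.114 and 0.0876). It was also lost with the median of the neighbouring genes subtracted (0.533), as described further on.

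The other sensors did not pass. CREB3L2, an ATF6-related factor that is also processed in the Golgi, read 9.77, 9.85 and 9.77 on the mock arrays and 10.19, 10.29 and 9.96 on the WTAP arrays. The groups did not overlap, the log2 fold change was 0.35 ± 0.12 (SE) and the adjusted p 0.0852 in limma. It passed in 4 of 16 alternatives, without WTAP array 6 (0.0426) among them. EIF2AK3, the gene of PERK, differed by -0.21 on the log2 scale (adjusted p 0.543) and ERN1, that of IRE1, by -0.27 (adjusted p 0.406), both in limma with overlapping groups. XBP1 differed by -0.05 and, on its second probe, by -0.04, with 95% intervals of -0.38 to 0.28 and -0.31 to 0.23. Whether these probes tell spliced from unspliced XBP1 mRNA was not tested, so splicing by IRE1 is not read here.

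HSPA5 was the only chaperone that passed. It encodes BiP, the main HSP70 chaperone of the ER lumen, which also holds the 3 sensors inactive. The deposited signals were 645, 648 and 507 on mock arrays 4, 5 and 6 and 923, 886 and 754 on the WTAP arrays. After normalization the log2 values were 8.99, 8.96 and 8.56 against 9.63, 9.62 and 9.35. The groups did not overlap, and mock array 6 stood lowest. The means were 8.84 ± 0.24 and 9.53 ± 0.16 (SD, n = 3), and the log2 fold change was 0.70 ± 0.15 (SE), or 1.62-fold, with an adjusted p of 0.0169 in limma. HSPA5 passed in 14 of 16 alternatives (adjusted p 0.00209 to 0.0642), and the call was lost without WTAP array 4 (0.0642) or WTAP array 5 (0.0559).

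Of the 12 detected, 1 was higher and 0 were lower, beside 9.81% and 9.50% of all genes, 3 had an unadjusted p under 0.05, and the median log2 fold change was -0.07 while the mean was 0.03. HSP90B1, the ER form of HSP90, differed by -0.02, with a 95% interval of -0.29 to 0.26. CALR (calreticulin), a lectin chaperone that binds sugar chains, differed by -0.04, with an interval of -0.32 to 0.24. Both carry ERSE, as do HSPA5, CANX, CRELD2 and XBP1, and differences between these genes were not tested. CANX, the membrane-bound partner of CALR, differed by 0.28 (adjusted p 0.186) and by 0.09 on its second probe (adjusted p 0.634), both in limma.

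The disulfide isomerases PDIA4 and PDIA6 had log2 fold changes above 0 that did not pass. PDIA4 read 8.83, 8.91 and 8.94 on the mock arrays and 9.55, 9.25 and 8.98 on the WTAP arrays. WTAP array 6 lay next to the mock arrays. The log2 fold change was 0.36 ± 0.15 (SE), with an adjusted p of 0.137 in limma and of 0.0446 without WTAP array 6. PDIA6 differed by 0.21 (adjusted p 0.276) with overlapping groups. PDIA3, a glycoprotein isomerase, could not be tested, since its 1 probe was detected on 0 arrays.

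The co-chaperones and secreted folding factors had log2 fold changes below 0, and 0 of them passed in limma. DNAJB9, an HSP40 partner of BiP that is a known target of XBP1, read 8.86, 9.12 and 8.93 on the mock arrays and 8.44, 8.83 and 8.53 on the WTAP arrays. The groups just failed to overlap, the log2 fold change was -0.37 ± 0.14 (SE) and the adjusted p 0.102 in limma. HYOU1, a nucleotide exchange factor of BiP, differed by -0.24 and on its second probe by -0.28, with adjusted p of 0.207 and 0.113. DNAJB11, another HSP40 partner, and SDF2L1, which binds it, differed by -0.10 and -0.12. MANF, a secreted factor that binds BiP, and CRELD2, an ER-resident folding factor, differed by -0.16 and -0.13, with overlapping groups. Of the genes with an ERSE-II match, HYOU1, SDF2L1 and HERPUD1 all had negative log2 fold changes, and none passed on its lead probe. Of the 36 detected members 25 had negative changes, and a tie between motif and direction was not tested.

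**Figure D2:**
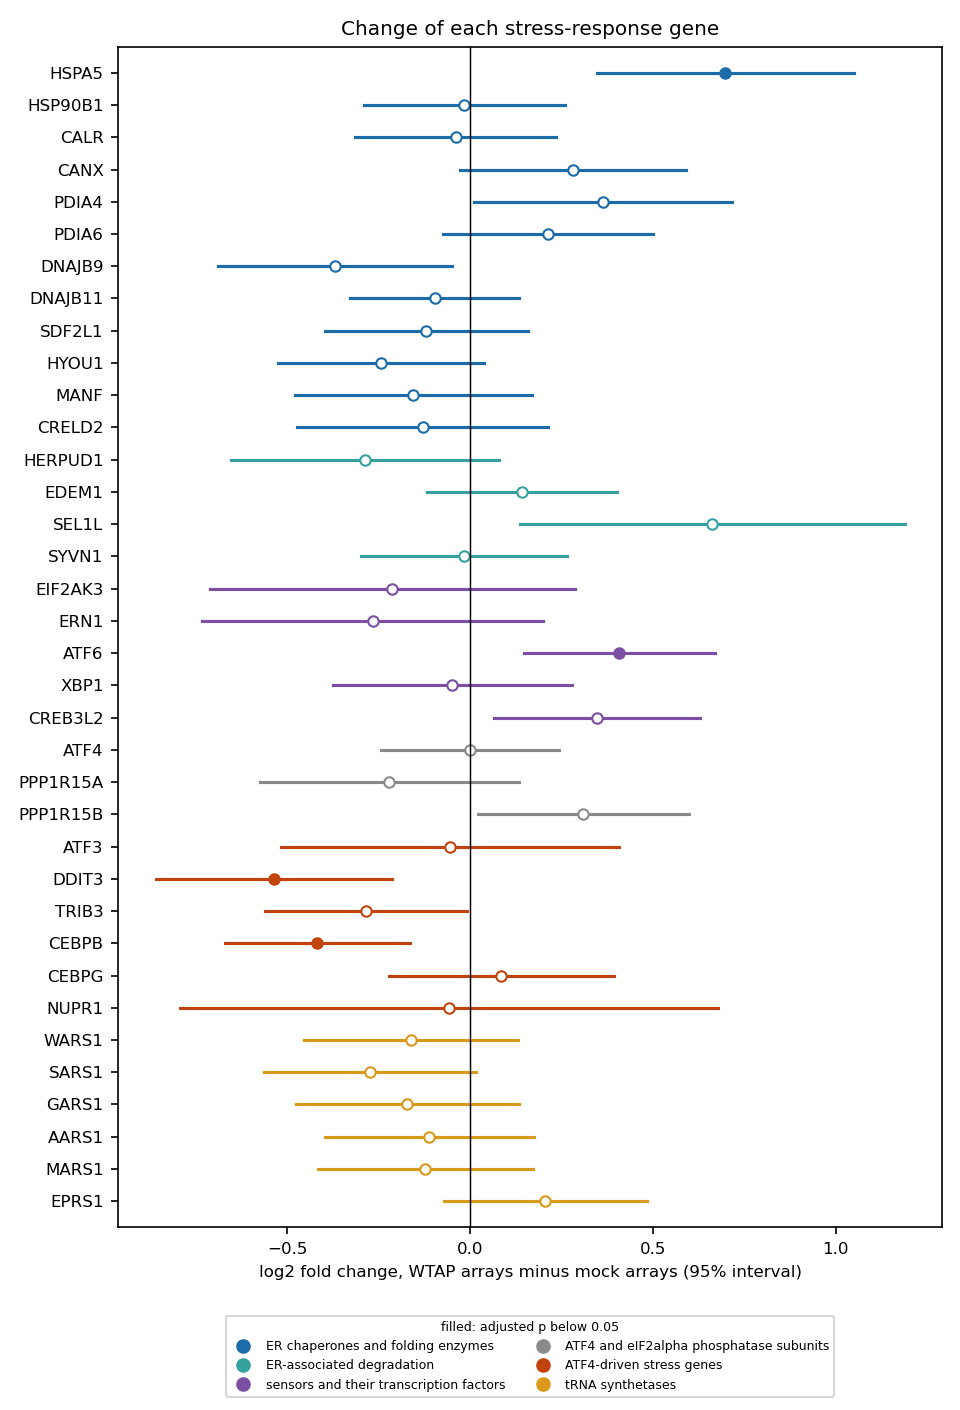
Log2 fold change (x axis, WTAP minus mock arrays) with its 95% interval for the 36 detected stress-response genes, coloured by role and filled where the adjusted p was below 0.05. HSPA5 at 0.70 and ATF6 at 0.41 stand to the right, DDIT3 at -0.54 and CEBPB at -0.42 to the left, and 10 of the 12 ATF4-driven genes lie left of 0.

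The degradation genes gave no call on their lead probes. These genes return misfolded protein to the cytosol. None of the 4 passed in limma, and 1, SEL1L, had an unadjusted p under 0.05. SEL1L, the scaffold of the HRD1 ligase, read 6.61, 6.11 and 5.70 on the mock arrays and 6.54, 6.90 and 6.97 on the WTAP arrays. Mock array 4 lay within the WTAP range. The probe was dim, detected on 2 mock and 3 WTAP arrays, and gave a log2 fold change of 0.66 ± 0.23 (SE) and an adjusted p of 0.0793, or 0.0276 without mock array 4. EDEM1, which hands mannose-trimmed glycoproteins to the ligase, differed by 0.14, and SYVN1, the ligase HRD1 itself, by -0.02, or -0.17 on its second probe.

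HERPUD1 was the 1 gene whose probes disagreed on the call. It encodes a membrane protein that gathers HRD1 complexes, and its promoter holds both an ERSE-II and an AARE match. Its brighter probe read 11.14, 10.95 and 11.12 on the mock arrays and 10.96, 10.94 and 10.45 on the WTAP arrays. These groups overlapped, with a log2 fold change of -0.29 ± 0.16 (SE) and an adjusted p of 0.249 in limma. Its second probe read 10.69, 10.37 and 10.63 against 10.14, 10.06 and 9.78, with no overlap. That probe fell by 0.57 on the log2 scale (SE 0.14), 1.48-fold, with an adjusted p of 0.0286 in limma. It passed in 10 of 14 alternatives and missed the threshold on leaving out mock array 4 (0.0885) or 6 (0.0808), or WTAP array 5 (0.0601) or 6 (0.0628). With it, 5 of 44 detected member probes passed (11.4%, against 19.1% of all probes), 2 higher and 3 lower (9.63% and 9.44% of all probes). In the other 6 genes with more than 1 detected probe, all probes shared the sign and the call.

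ATF4 mRNA did not differ detectably. The brightest of 3 ATF4 probes read 14.17, 14.21 and 14.09 on the mock arrays and 14.18, 14.09 and 14.20 on the WTAP arrays. Its log2 fold change was -0.00, with a 95% interval of -0.24 to 0.24 and an adjusted p of 0.998 in limma. The other probes differed by -0.24 and -0.38, with adjusted p of 0.208 and 0.149. ATF4 is set mainly by translation, and mRNA arrays do not show that step. PPP1R15A (GADD34), the inducible subunit that removes phosphate from eIF2alpha, differed by -0.22 (adjusted p 0.365). PPP1R15B, the constant subunit, read 6.35, 6.28 and 6.15 on the mock arrays and 6.41, 6.57 and 6.73 on the WTAP arrays, a log2 fold change of 0.31 (SE 0.13) with an adjusted p of 0.126 in limma.

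DDIT3 and CEBPB fell among the 6 detected ATF4-driven stress genes (33.3%, while 9.50% of all genes were lower). DDIT3 encodes CHOP, the factor tied to death under prolonged ER stress. The deposited signals were 1642, 1946 and 2104 on mock arrays 4, 5 and 6 and 1460, 1168 and 1234 on the WTAP arrays. As log2 values they were 10.54, 10.76 and 10.92 against 10.37, 10.07 and 10.16, with no overlap. The means were 10.74 ± 0.19 and 10.20 ± 0.16 (SD, n = 3). DDIT3 fell by 0.54 on the log2 scale (SE 0.14), 1.45-fold, with an adjusted p of 0.0327 in limma. The adjusted p was 0.0530 with array number as a replicate block. It ranged from 0.00475 to 0.0970 over 16 alternatives and passed in 10, and it missed the threshold on leaving out mock array 5 (0.0928) or 6 (0.0957), or WTAP array 5 (0.0970) or 6 (0.0690).

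CEBPB encodes a bZIP factor that pairs with CHOP and ATF4. It read 13.69, 13.69 and 13.82 on the mock arrays and 13.33, 13.39 and 13.22 on the WTAP arrays. The groups were tight and apart, with means of 13.73 ± 0.08 and 13.31 ± 0.08 (SD, n = 3). CEBPB fell by 0.42 on the log2 scale (SE 0.11), 1.34-fold, with an adjusted p of 0.0334 in limma and of 0.0510 with the replicate block. It passed in 9 of 16 alternatives (adjusted p 0.00203 to 0.0960). Leaving out any 1 of the 6 arrays took it over the threshold, at 0.0707, 0.0796 and 0.0960 without mock arrays 4, 5 and 6 and at 0.0866, 0.0619 and 0.0718 without WTAP arrays 4, 5 and 6.

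The rest of the stress genes did not pass. TRIB3, a pseudokinase that CHOP and ATF4 induce, read 12.42, 12.54 and 12.46 on the mock arrays and 12.23, 12.02 and 12.32 on the WTAP arrays. The groups did not overlap, with a log2 fold change of -0.28 ± 0.12 (SE) and an adjusted p of 0.138 in limma, or 0.0486 with trended and robust variance. ATF3, a repressor induced by ATF4, read 9.70, 9.76 and 9.67 on the mock arrays and 9.33, 9.49 and 10.15 on the WTAP arrays. WTAP array 6 lay above all mock arrays and the other WTAP arrays below them, so the mean difference of -0.06 describes no array. CEBPG, a bZIP partner of ATF4, differed by 0.09 and NUPR1, a stress-induced chromatin protein detected on 4 arrays, by -0.06, with an interval of -0.79 to 0.68.

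**Figure D3:**
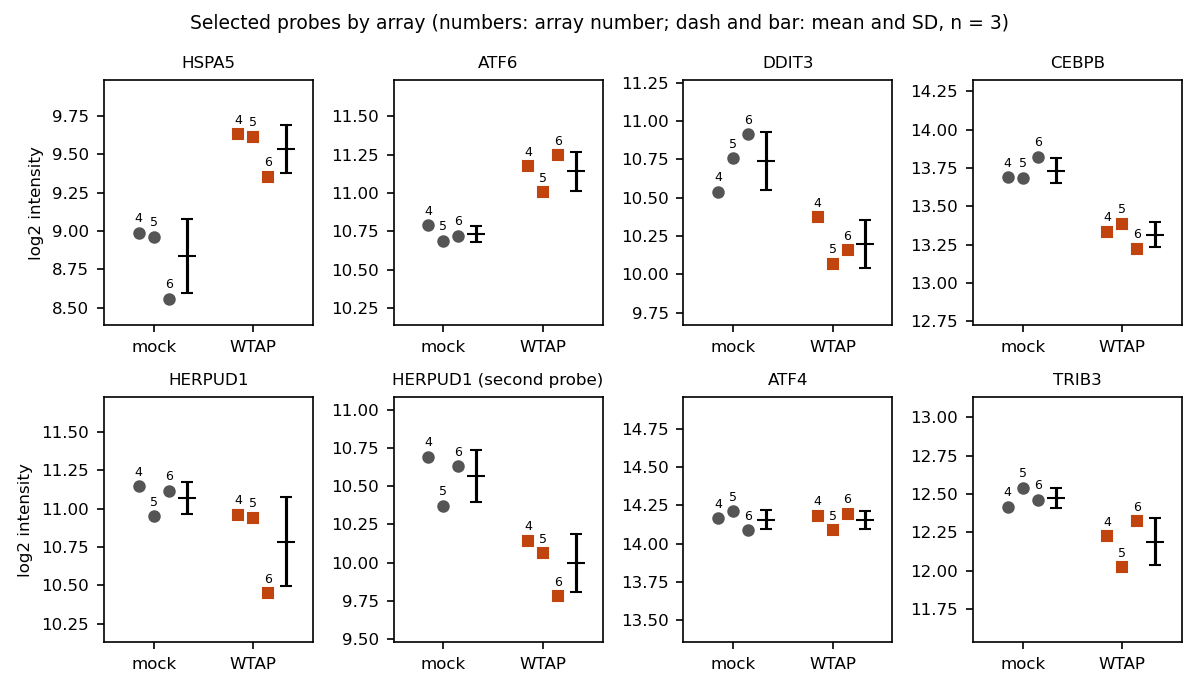
Log2 intensity (y axis, a range of its own in each panel) of 8 probes on the mock (grey circles) and WTAP (orange squares) arrays, with array numbers beside the points and the mean and SD (n = 3) beside each group. HSPA5, ATF6, DDIT3, CEBPB, TRIB3 and the second HERPUD1 probe show no overlap between groups, while ATF4 and the brighter HERPUD1 probe do.

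CHAC1, SESN2 and STC2 were too dim to test. CHAC1, which degrades glutathione, was detected on 2 mock arrays and 0 WTAP arrays, with deposited signals of 177, 191 and 216 against 154, 147 and 180. SESN2, an amino acid sensor of the mTORC1 pathway, and STC2, a secreted glycoprotein, were each detected on 1 array of each group. These 3 genes lay just outside the detection rule, and NUPR1 on 4 arrays and SEL1L on 5 just inside it.

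The synthetases, which charge tRNAs, gave no call. Of the 6, 0 passed in limma and 0 had an unadjusted p under 0.05, with a lowest adjusted p of 0.170 and log2 fold changes from -0.27 to 0.21. SARS1 (serine) read 10.82, 10.88 and 11.01 on the mock arrays and 10.44, 10.70 and 10.75 on the WTAP arrays. The groups did not overlap, with a log2 fold change of -0.27 ± 0.13 (SE). WARS1 (tryptophan) differed by -0.16, and by -0.32 on its second probe, GARS1 (glycine) by -0.17, AARS1 (alanine) by -0.11, and MARS1 (methionine) by -0.12. EPRS1, which charges glutamate and proline, differed by 0.21. Across the 6, no 95% interval reached past 0.56 in size on the log2 scale. The 6 synthetases outside the ATF4 set had a median of -0.14, the same as these 6 at -0.14.

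Set side by side, the chaperones and the ATF4-driven genes both had medians close to that of all genes. The median log2 fold change was -0.07 over 12 chaperones and -0.14 over 12 ATF4-driven genes (6 stress genes and 6 synthetases), beside 0.00 over all genes. Calls were 1 higher and 0 lower among the chaperones, and 0 higher and 2 lower (16.7%) among the ATF4-driven genes, of which 10 of 12 had a negative log2 fold change. Over all genes 9.81% were higher and 9.50% lower. The mean deviation of the chaperones from the 6-array mean was -0.05, 0.03 and -0.02 on mock arrays 4, 5 and 6 and 0.01, 0.13 and -0.09 on the WTAP arrays. The ATF4-driven genes stood at -0.07, 0.11 and 0.20 on the mock arrays and -0.10, -0.12 and -0.01 on the WTAP arrays. Both lists overlapped between groups, and for the ATF4-driven genes mock array 4 lay among the WTAP arrays. The difference between the lists was not tested.

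**Figure D4:**
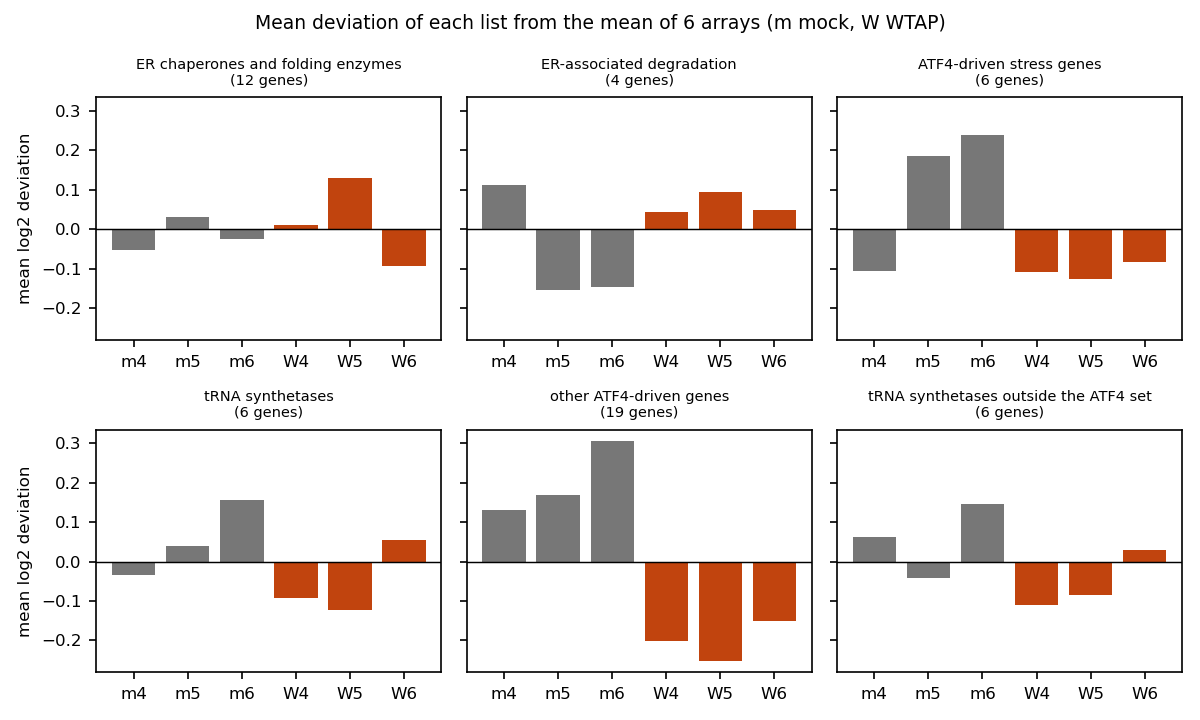
Mean log2 deviation of 6 gene lists from the mean of the 6 arrays (y axis, bars from 0), for mock arrays m4 to m6 in grey and WTAP arrays W4 to W6 in orange. The member lists overlap between groups, while the 19 other ATF4-driven genes, SLC7A11 among them, are above 0 on all mock arrays and below 0 on all WTAP arrays. The 15 other degradation and translocation genes, not drawn, also did not overlap, with smaller deviations.

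Some members lay where neighbouring genes shifted as a group. For each gene, the median log2 fold change of the 50 nearest tested genes on its chromosome was taken. On chromosome 1 the neighbour shift was 0.29 around ATF6, 0.33 around PPP1R15B, 0.29 around EPRS1, 0.29 around ATF3 and 0.13 around SARS1. After subtraction ATF6 stood at 0.12 (adjusted p 0.533 in limma), PPP1R15B at -0.02 and EPRS1 at -0.08. Subtraction made 2 negative changes larger: ATF3 went from -0.06 to -0.35 and SARS1 from -0.27 to -0.40. Their adjusted p were 0.260 and 0.0839 in limma. Around HSPA5 on chromosome 9 the neighbour shift was -0.06. Around ERN1 on chromosome 17 and TRIB3 on chromosome 20 the shift was 0.21 each. After subtraction ERN1 stood at -0.48 and TRIB3 at -0.49, with adjusted p of 0.152 and 0.0281 in limma. The part of this chromosomal shift in the member changes was not tested.

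Genes of the same pathways outside the 40 were read from lists of 91 genes, 75 of them detected. In all, 1 was higher and 8 were lower, 12% of the 75, beside 19.3% of all genes (9.81% higher and 9.50% lower). SLC7A11, which entered the fit through the mock arrays alone, is among the 8. Among 13 other ER folding genes only FKBP11, a prolyl isomerase of secretory cells, passed. It read 11.00, 10.84 and 11.11 on the mock arrays and 9.90, 9.86 and 10.01 on the WTAP arrays, with no overlap. FKBP11 fell by 1.06 on the log2 scale (SE 0.12), 2.09-fold, with an adjusted p of 0.00111 in limma, and passed in all 16 alternatives. Of 15 other degradation and translocation genes 0 passed in limma, and 2 had an unadjusted p under 0.05. Their mean deviation was -0.009, -0.042 and -0.021 on mock arrays 4, 5 and 6 and 0.019, 0.050 and 0.002 on the WTAP arrays, with no overlap.

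Among 16 other sensors and regulators, ATF6B was higher and CREB3 lower (12.5% called, beside 19.3% of all genes, 9.81% higher and 9.50% lower). ATF6B, the paralog of ATF6, read 8.06, 8.22 and 8.10 on the mock arrays and 8.55, 8.78 and 8.67 on the WTAP arrays, with no overlap. The log2 fold change was 0.54 ± 0.12 (SE) with an adjusted p of 0.0157 in limma, lost without mock array 4 (0.0528) or WTAP array 5 (0.0548). The other ATF6B probes did not pass and overlapped between groups, at 0.25 (adjusted p 0.272) and 0.12 (adjusted p 0.646). CREB3, a Golgi stress factor, fell by 0.61 on the log2 scale (SE 0.18), with an adjusted p of 0.0490 that ranged to 0.269 over 16 alternatives, 9 of which kept the call. Its neighbour shift on chromosome 9 was -0.30, and the CREB3 call was lost on leaving out any of 5 arrays, mock array 4 being the exception.

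The other ATF4-driven genes held most of the calls. Of 19 detected, 0 were higher and 5 with detection in both groups were lower, while 9.50% of all genes were lower. SLC7A11 was detected on the mock arrays alone and entered the fit only through them, so its count as lower is no result. Counted with it, 6 were lower (31.6%), and the median log2 fold change was -0.23. The lower count, which held SLC7A11 wherever it was fitted, was 5 or 6 in all 16 alternatives, and 5 with detection on all 6 arrays. The mean deviation of these 19 genes was 0.13, 0.17 and 0.31 on mock arrays 4, 5 and 6 and -0.20, -0.25 and -0.15 on the WTAP arrays, with no overlap. SLC7A11 is part of the 31.6%, of the median and of these means, and the means were not recomputed without it. This list was drawn up with earlier results of these arrays known, so its direction is a description.

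SLC7A11, the cystine transporter of system xc-, read 7.37, 7.08 and 7.82 on the mock arrays and was detected on 0 WTAP arrays. It entered the fit only through the mock arrays, so no p is given for it. The deposited signals were 290, 270 and 357 on the mock arrays and 136, 125 and 160 on the WTAP arrays. On the background-corrected scale it was at least 2.67-fold lower on the WTAP arrays, taking for each of them the lowest value of a detected probe. Without background correction, the log2 fold change was -1.12, and it was -1.07 in the deposited processed table. Its neighbour shift on chromosome 4 was -0.43. NIBAN1, a stress protein of the ATF4 programme, read 9.26, 9.17 and 9.26 against 8.11, 7.67 and 8.35, and fell by 1.19 on the log2 scale (SE 0.17, adjusted p 0.00357 in limma). Its second probe fell by 1.43. VEGFA, the angiogenic growth factor, read 8.54, 8.19 and 8.71 against 6.88, 7.42 and 7.77, and fell by 1.13 (SE 0.23, adjusted p 0.0133 in limma), with 1.20 on its second probe.

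The remaining lower genes, named after their values were seen, were CTH, ADM2 and ASNS. CTH makes cysteine from cystathionine and fell by 0.92 on the log2 scale (adjusted p 0.0110 in limma) on its lead probe, while its other probes overlapped between groups and did not pass, at -0.43 (adjusted p 0.158) and -0.58 (adjusted p 0.192). ADM2, a secreted peptide, fell by 0.92 (adjusted p 0.00418). ASNS, which makes asparagine and is a classical ATF4 target, fell by 0.64 (adjusted p 0.0408) and on its second probe by 0.92 (adjusted p 0.00868). The ASNS lead probe passed in 11 of 16 alternatives, and missed the threshold on leaving out mock array 5 (0.0953) or 6 (0.113), or WTAP array 4 (0.109) or 5 (0.117). The amino acid transporters SLC7A5 and SLC7A1 had positive changes of 0.36 and 0.33 that did not pass, with adjusted p of 0.204 and 0.0887. Of the 6 other synthetases of the ATF4 set and the 6 outside it, 0 passed in limma, with 1 and 2 at an unadjusted p under 0.05.

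**Figure D5:**
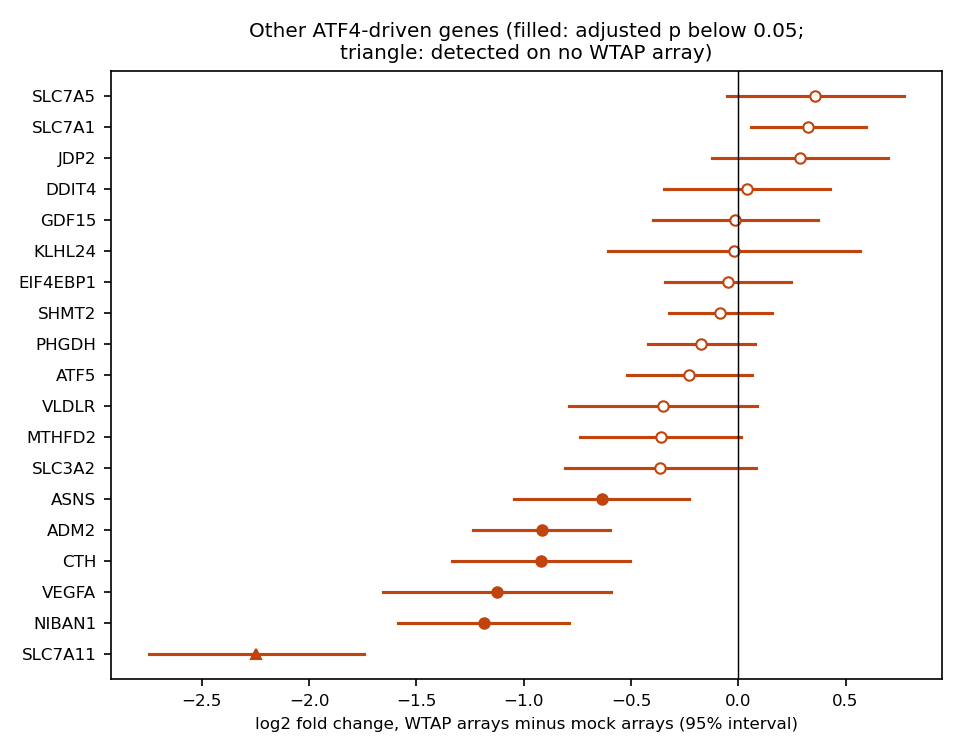
Log2 fold change (x axis, WTAP minus mock arrays) with its 95% interval for 19 ATF4-driven genes outside the set of 40, filled where the adjusted p was below 0.05, with a triangle for SLC7A11, detected on no WTAP array, whose fitted value is not a measured level. The 5 genes that passed with detection in both groups lie left of 0, from ASNS at -0.64 to NIBAN1 at -1.19. SLC7A11, which entered the fit through the mock arrays alone, lies beyond.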

How the data were processed

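The authors deposited probe intensities before normalization with a detection p-value for each array, per the file headers, and a processed intensity table on the linear scale whose columns share nearly 1 median, by a method not given in the sources used here. BeadStudio 3.3 is named per the submitters' processing notes. The first table held 29377 probes, and the 92 absent from the other were left out. Of the 29285 used, 27988 had 1 gene symbol (27819 through the RefSeq gene table) and 1297 none.

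In R 4.3.3 with limma 3.58.1, neqc (normexp background from the detection p, offset 16, quantile normalization) gave log2 values from the deposited intensities. Probes detected on 3 or more arrays were fitted with lmFit and eBayes, two-sided, WTAP minus mock, with Benjamini-Hochberg adjustment over all 15830. The probe of highest mean over all arrays stood for a gene. The ± after a fold change is its standard error and intervals are 95%. Precision is limited by 3 arrays a group. No probe's level was set against another's. The fit was tested on simulated data, and 16 alternatives were run.

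Same-numbered arrays deviated together (correlations 0.12, 0.21 and 0.23 for numbers 4, 5 and 6, and -0.20 to 0.02 for other combinations), so blocked values are printed where a call changed. The 40 members and all lists were chosen with earlier results of these data known. Every array value is given for members that passed and for those of each role with the largest change that did not. The other pathway lists were to name up to 3 genes of each direction that passed. Further genes of the other ATF4-driven list are named as well, picked after their values were seen.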

Additional observations from a re-analysis of the deposited data

How the results depend on the processing

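The count of higher members was 2 in the main setting and 1, HSPA5, with median scaling, with no filter on dim probes and with neighbouring genes subtracted. The count of lower members was 1 with no filter and 0 with array number as a replicate block, where DDIT3 and CEBPB just missed it. It was 3, with TRIB3 added, with trended and robust variance and with neighbouring genes subtracted. Leaving out 1 array at a time gave 0 to 3 higher and 0 to 1 lower members, with HSPA5 lost on leaving out 2 of the 6 arrays, DDIT3 on 4, ATF6 on 5 and CEBPB on all 6. Over all probes, 3019 passed. That was 1717 to 2821 with 1 array left out, 1595 of 11535 with neighbouring genes subtracted, and 3254 with the block, which changed no other member call. The median of the chaperones stayed within -0.11 to 0.01 and that of the ATF4-driven genes within -0.22 to -0.10 on leaving out 1 array. With median scaling these medians were -0.13 and -0.19, beside -0.03 over all genes. With neighbouring genes subtracted they lay further apart, at -0.02 and -0.22, and this difference was not tested. No value that was recomputed changed sign where called, over 16 alternatives for most genes, 15 for SLC7A11 and 14 for the second HERPUD1 probe. Other second probes outside the members were not recomputed. The deposited processed table, the fit without background correction and the trended, robust fit added CREB3L2, for 3 higher members each. Members near the detection limit (SEL1L, NUPR1, CHAC1, SESN2, STC2) are limited by signal over background. Causes of these shifts were not tested.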

Other observations

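Some pathway genes outside the set of 40 passed on a second probe while the brighter probe did not, named after their values were seen. MTHFD2, the mitochondrial folate enzyme, fell by 0.63 on the log2 scale on its second probe (adjusted p 0.0162 in limma), beside -0.36 on the brighter one (adjusted p 0.160). SLC3A2, the partner chain of SLC7A11 and SLC7A5, fell by 0.54 on 1 of 3 probes (adjusted p 0.0349 in limma), beside -0.36 and -0.17 on the others. Which transcripts these probes read was not tested.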
